A study of Mus musculus with 2 samples.

Results

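Mcpt8 encodes mouse mast cell protease 8, a serine protease of secretory granules that in mice marks basophils. It is considered here beside the mast cell genes Mcpt1, Mcpt4, Cma1, Cpa3, Tpsb2, Kit, Fcer1a, Ms4a2 and Gzmb, in cultured mouse embryonic fibroblasts grown with or without fibroblast growth factor 2 (Fgf2). The 10 genes were taken by symbol. Mcpt8 was chosen by its difference in normalized signal between these same cultures, so its values are a description and support nothing further. Of the 10, 9 had a probe named in the annotation used here, 12 probes in all, out of 16593 named genes. Kit had none.

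Each culture was hybridised to 1 Illumina bead array with 1 colour, so no value has a replicate and no test between the cultures was possible. One culture is labelled as given Fgf2 and the other as given no agent; both are labelled as male mouse embryonic fibroblasts, and neither dose, time of exposure nor strain is given in the labels. The study's title concerns a growth factor in the generation of induced pluripotent stem cells. The agent labels set the groups here, although the series' design text names both cultures as being without Fgf2.

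Mast cells and basophils are blood-derived cells that carry the high-affinity receptor for immunoglobulin E and release preformed granules when it is crosslinked. Their granules hold chymases, tryptases and carboxypeptidase A3, bound to the proteoglycan serglycin, and mast cells depend on the receptor Kit and its ligand, stem cell factor. Fibroblasts are a known source of stem cell factor and of other signals to mast cells. In the mouse the genes of the chymases, cathepsin G and several granzymes lie next to each other on chromosome 14.

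The arrays were alike in depth of signal. The median deposited signal was 148.5 with Fgf2 and 149.3 without it, the background about 125.4 and 125.8, and the lowest signal called detected 175.9 and 171. A probe was called detected at a detection p-value below 0.01, where the p-value ranks a probe against the array's negative controls and 0.00125 is the smallest value above 0. Levels are log2 values after background correction and quantile normalization, and each difference is Fgf2 minus no Fgf2. Among the 6898 genes detected on both arrays by their brightest probe the median difference was 0.03. Different probes of a gene differed with a pooled SD of 0.22, which does not include the spread between cultures. Of 13 fibroblast markers with a probe, 12 were detected on both arrays, among them Vim with signals of 19591.2 and 16635.1 and Thy1 with 10220.5 and 10763.4. Postn was not detected on either. Of the 12, 4 were at least 2-fold lower with Fgf2 and 2 at least 2-fold higher, against 2.52% and 1.8% of the 6898 genes. Among them, Col1a1 differed by -2.53 and Lum by 2.39. Xist, a transcript of the inactive X chromosome, gave signals of 584.1 and 476.6 on its brighter probe, and the Y-linked gene Eif2s3y gave 496.0 and 575.1, so both were detected in cultures labelled male.

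Among the mast cell genes, Mcpt8 alone was detected. Its single probe had a signal of 2023.3 with Fgf2, against 257.8 without it, and a detection p-value of 0 on both arrays. The transcript was therefore above background in both cultures and much brighter in the culture with Fgf2. After normalization its level was 10.90 with Fgf2 and 7.19 without it, a difference of 3.71 or 13.1-fold. Without background correction the fold was 7.85, and in the authors' deposited table of processed values the levels were 10.90 and 6.93, which differ by 3.97. This was the highest of the 6898 differences, which is the reason for the choice of the gene. In these bulk samples, more cells that express a gene and more transcript per cell cannot be told apart.

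**Figure D1:**
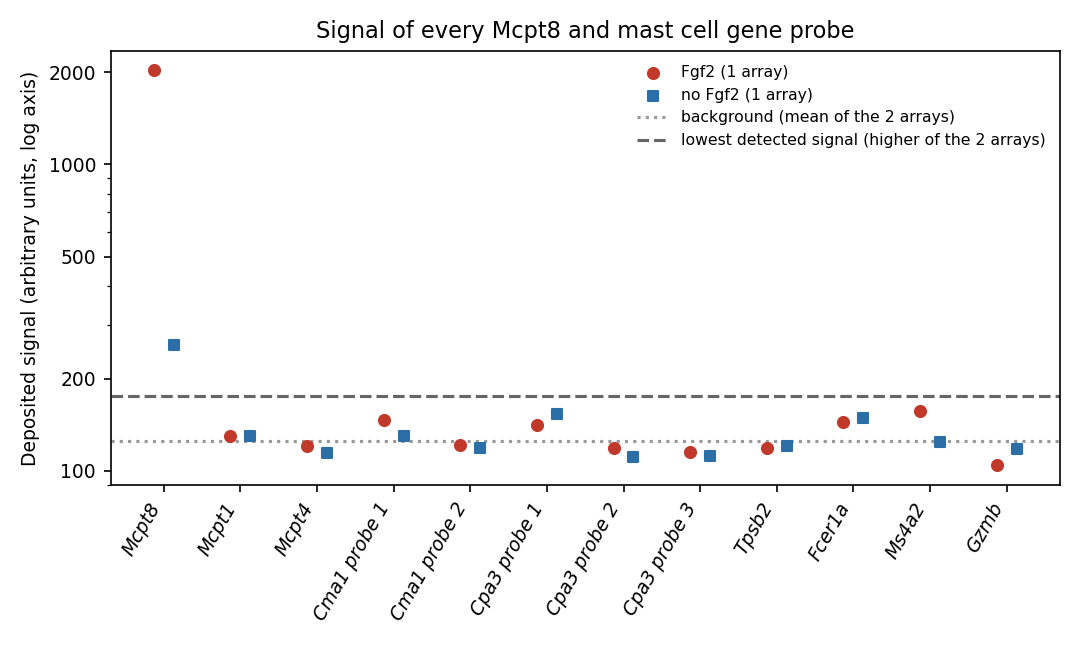
Deposited signal (log axis) of each of the 12 probes of Mcpt8 and the mast cell genes, 1 array per culture, with Fgf2 as circles and without Fgf2 as squares. Mcpt8 stands at 2023.3 and 257.8, and all 11 other probes lie below the lowest detected signal on both arrays.

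The other 8 genes with a probe were not detected on either array, by any of their 11 probes. These 11 signals ran from 104.3 to 156.5 with Fgf2, with a median of 121.3, and from 111.4 to 153.1 without it, with a median of 120.7. They straddled the background on each array. Across all named genes, 41.6% had a probe detected on both arrays, against 1 of 9 here, and that 1 was the gene chosen for its values.

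The chymases, many of which cut after aromatic residues, are proteases stored in mast cell granules. Mcpt4, the main chymase of connective tissue mast cells in the mouse, had signals of 120.4 with Fgf2 and 114.2 without it. Mcpt1, a chymase of mucosal mast cells, had 130.3 and 129.9. Cma1, also known as mast cell protease 5, had 147.1 and 129.9 on its brighter probe, with detection p-values of 0.109 and 0.3684, and 121.3 and 118.5 on its other probe. None of these differed in a way that could be read, since all lay at background.

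Tpsb2, a tryptase that forms tetramers in the granule, had signals of 118.8 with Fgf2 and 120.7 without it. Cpa3, which trims peptides from their carboxyl end and is abundant in both mast cells and basophils, was covered by 3 probes. The brightest of them had 141.7 with Fgf2 and 153.1 without it, at detection p-values of 0.1579 and 0.0639, and the other probes had 119.0 and 115.4 with Fgf2, against 111.4 and 111.7 without it. Gzmb, a granzyme of cytotoxic lymphocytes, had 104.3 and 118.2, the lowest signal of any of the 12 probes with Fgf2.

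Fcer1a and Ms4a2 encode the alpha and beta chains of the immunoglobulin E receptor. Fcer1a had signals of 144.1 with Fgf2 and 148.6 without it, and detection p-values of 0.1278 and 0.094. Ms4a2 had 156.5 with Fgf2, against 124.1 without it. Its detection p-value with Fgf2, 0.0451, was the lowest among the 11 undetected probes and would pass a threshold of 0.05 on that array, but not on the array without Fgf2, where it was 0.5614. In the authors' deposited table Ms4a2 differed by 1.89, a value that rests on signals at background.

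The question of whether other mast cell or basophil genes accompany Mcpt8 was extended to 5 lists, of granule proteases, surface receptors, mediators, transcription factors and signalling proteins. Of 86 listed genes 78 had a probe, and 11 of these (14.1%) were detected on both arrays, against 41.6% of all named genes. A further 2 were detected only without Fgf2, 0 only with it, and 65 on neither array. Only Mcpt8 was at least 2-fold higher among the 11, and only Ptgs2 at least 2-fold lower. Ptgs2 fell short of 2-fold without background correction, with an offset of 50 and by the mean of its probes, where its differences were -0.69, -0.95 and -0.56. The same threshold was passed upward by 1.8% of the 6898 genes detected in both cultures, and downward by 2.52% of them.

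Of the 13 granule genes with a probe, Mcpt8 was the 1 detected. Prss34, a protease of mouse basophils, had signals of 134.2 with Fgf2 and 123.6 without it, and the tryptase gene Tpsab1 had 132.1 and 142.5. Srgn, which encodes serglycin, had 152.3 and 162.4 on its brighter probe, at detection p-values of 0.0677 and 0.0288. Hdc, the enzyme that makes histamine, had 134.5 with Fgf2, against 149.9 without it, and the basophil surface gene Cd200r3 had 113.5 and 135.8.

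**Figure D2:**
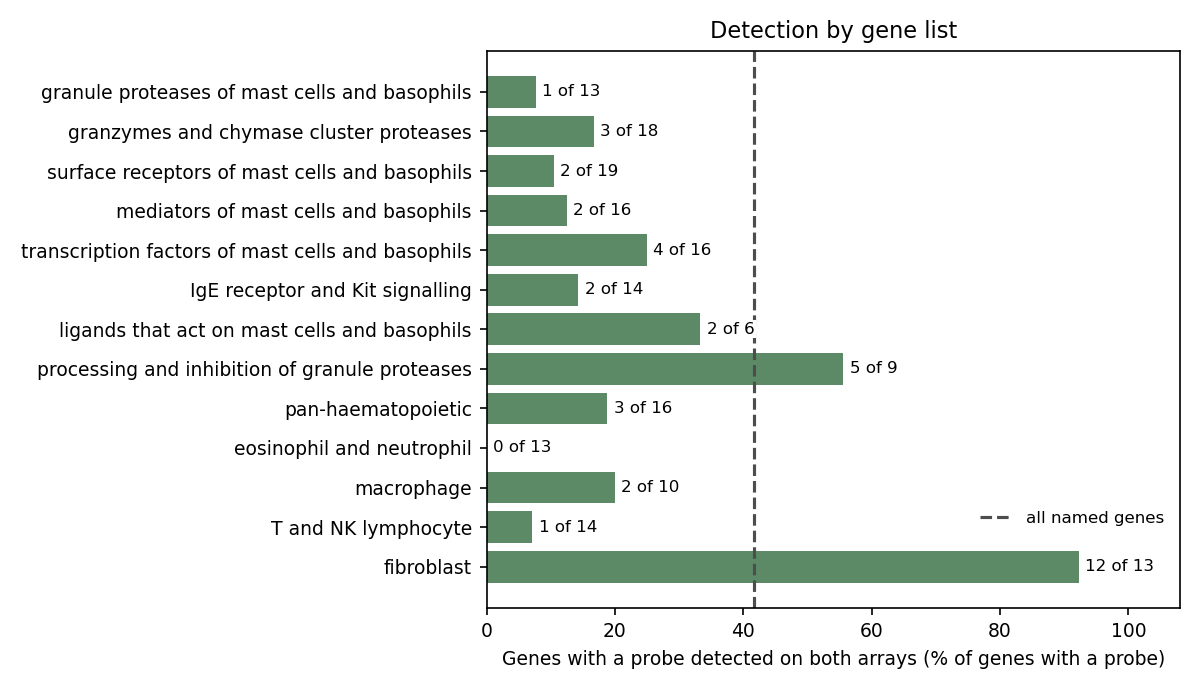
Share of each list's genes with a probe that was detected on both arrays, in percent, with the counts beside the bars; the dashed line is the 41.6% of all named genes. The lists of mast cell and basophil genes lie between 1 of 13 and 4 of 16, the fibroblast list at 12 of 13.

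Of 19 surface receptor genes with a probe, 2 were detected on both arrays. Il3ra, the alpha chain of the interleukin 3 receptor, had signals of 259.4 with Fgf2 and 233.3 without it, a difference of 0.25. Cd63, a tetraspanin of lysosomes and granules found in many cell types, had 15457.7 and 16917.5 on its brightest probe, a difference of -0.13. Fcer1g, the gamma chain shared by several immunoglobulin receptors, was not detected, with 152.9 and 142.4. Neither detected receptor was at least 2-fold apart between the cultures.

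Among the transcription factors 4 of 16 were detected on both arrays. Gata2, which both mast cells and basophils require, had signals of 742.5 with Fgf2 and 545.2 without it, a difference of 0.53 or 1.44-fold. Stat5a, which acts below cytokine receptors, had 281.3 and 211.8, a difference of 0.74, while its other probe was not detected on either array, at 144.5 and 169.9. Zfpm1, a cofactor of GATA factors, was lower with Fgf2 (1773.0, against 2422.5 without it), as was Runx1, a regulator of blood formation (230.9, against 295.7 without it), by -0.46 and -0.66. The other 12 were undetected, including Gata1 (136.2 and 139.5 on its brighter probe), Mitf (126.8 and 132.1) and Spi1 (132.4 and 150.2).

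Of 16 mediator genes with a probe, 2 were detected on both arrays, 2 only without Fgf2 and 12 on neither. Ptgs2, the inducible cyclooxygenase, had signals of 228.7 with Fgf2 and 360.5 without it, a difference of -1.15, and its other probe was undetected. Csf1, the macrophage growth factor, had 680.6 and 1176.4, a difference of -0.92. Il6 was detected only without Fgf2, with 159.4 against 261.0, which makes it at least 2.35-fold lower with Fgf2 (at least 1.49-fold without background correction), and Alox5ap, a cofactor of leukotriene synthesis, likewise with 160.9 against 184.3, at least 1.14-fold lower. A bound of this kind sets the brighter array against the higher of the gene's own level and the lowest detected level of the dimmer array. Of the signalling genes, 2 of 14 were detected on both arrays: Plcg2, a phospholipase, differed by 0.54, and the adaptor gene Lat2 by -0.14.

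Ligands that act on these cells were also examined. Il33, an alarmin that activates mast cells and basophils, had a signal of 257.4 with Fgf2, against 175.4 without it, where it was barely detected at a p-value of 0.0088. Its difference was 1.20, or 2.29-fold higher, and 1.46-fold higher without background correction. Il18 differed by -0.13. Kitl, which encodes stem cell factor, was not detected, with 132.9 and 134.1 on its brighter probe, nor was Il3, with 116.2 and 136.3.

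Of the genes that mature or restrain granule proteases, 5 of 9 were detected on both arrays, near the 41.6% of all named genes. Ctsc, the dipeptidyl peptidase that activates granule serine proteases by removing their amino-terminal dipeptide, was lower with Fgf2 on all 3 probes, and its brightest had 406.0 with Fgf2 against 644.5 without it. The probes detected on both arrays differed by -0.88 and -1.21. The other had 175.1 with Fgf2, where it was not detected, against 265.8 without it, and was at least 2.42-fold lower, or at least 1.51-fold without background correction. Among the protease inhibitors, Serpina3n was detected only with Fgf2, at 455.8 against 157.5, and was at least 5.81-fold higher, or at least 2.64-fold without background correction. Serpinb6a differed by 0.31, Slpi by 0.62 and Serpinb6b by -0.65. Prf1, the pore-forming perforin of lymphocytes, differed by -0.26. Opposite directions thus occurred within this list.

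Mcpt8 belongs to a row of 15 protein-coding genes on chromosome 14, all of which had a probe, running from Cma1 through the chymases, Mcpt8 and Ctsg to the granzymes and ending with Gzmb. The list was fixed with earlier results for Mcpt8 known. Beside Mcpt8, 2 genes of the row were detected on both arrays, Gzme and Gzmd. In gene order they follow Mcpt8 after Ctsg and are each other's neighbours. All 3 were brighter with Fgf2. The 12 others were detected on neither array, so 3 of 15 were detected, against 41.6% of all named genes.

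Gzme encodes granzyme E and was measured by a pair of probes. The brighter had a signal of 537.1 with Fgf2, against 217.5 without it, a difference of 1.99 or 3.96-fold. The dimmer had 323.8 with Fgf2, against 162.2 without it, where it was not detected, and so was at least 3.58-fold higher, or at least 1.88-fold without background correction. Both probes were brighter with Fgf2. Gzme stood at rank 18 from the highest of the 6898 differences.

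Gzmd, which encodes granzyme D, was less certain. Its brighter probe had a signal of 247.4 with Fgf2, against 180.4 without it, where the detection p-value was 0.005. The difference was 0.97 or 1.96-fold, just short of 2-fold, and 1.36-fold without background correction. Its other probe was not detected on either array, at 145.8 and 141.4. Gzmd, Gzme, Gzmf, Gzmg and Gzmc are close copies of each other in the mouse, so a probe named for one may also bind the transcript of another, which the files do not resolve.

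Ctsg, the gene of cathepsin G that separates Mcpt8 from Gzme, had signals of 112.6 with Fgf2 and 125.1 without it. On the other side of Mcpt8 stood Mcpt4, at background on both arrays. Mcpt2 and Cma2, of the chymase family, had 128.3 and 125.6 with Fgf2, against 125.5 and 125.2 without it. Mcpt9 had 126.2 with Fgf2, against 157.5 without it, at detection p-values of 0.4812 and 0.0376. The granzyme genes beyond Gzmd, that is Gzmg, Gzmn, Gzmf, Gzmc and Gzmb, had signals from 104.3 to 142.6 with Fgf2 and from 113.6 to 146.3 without it. The genes on either side of Mcpt8 and those beyond Gzmd were thus at background, so a difference between the cultures cannot be read for them.

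The nearest genes outside the row that had a probe were also read, 3 on each side, chosen after the values were seen. None of those detected was at least 2-fold higher with Fgf2. Nfatc4, a calcium-regulated transcription factor, had signals of 2054.5 with Fgf2 and 2444.4 without it, a difference of -0.26, and Khnyn differed by 0.05. Cenpj, a centriole gene, differed by -0.47, with 178.6 against 203.3. Cbln3, Atp12a and Rnf17 were not detected.

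**Figure D3:**
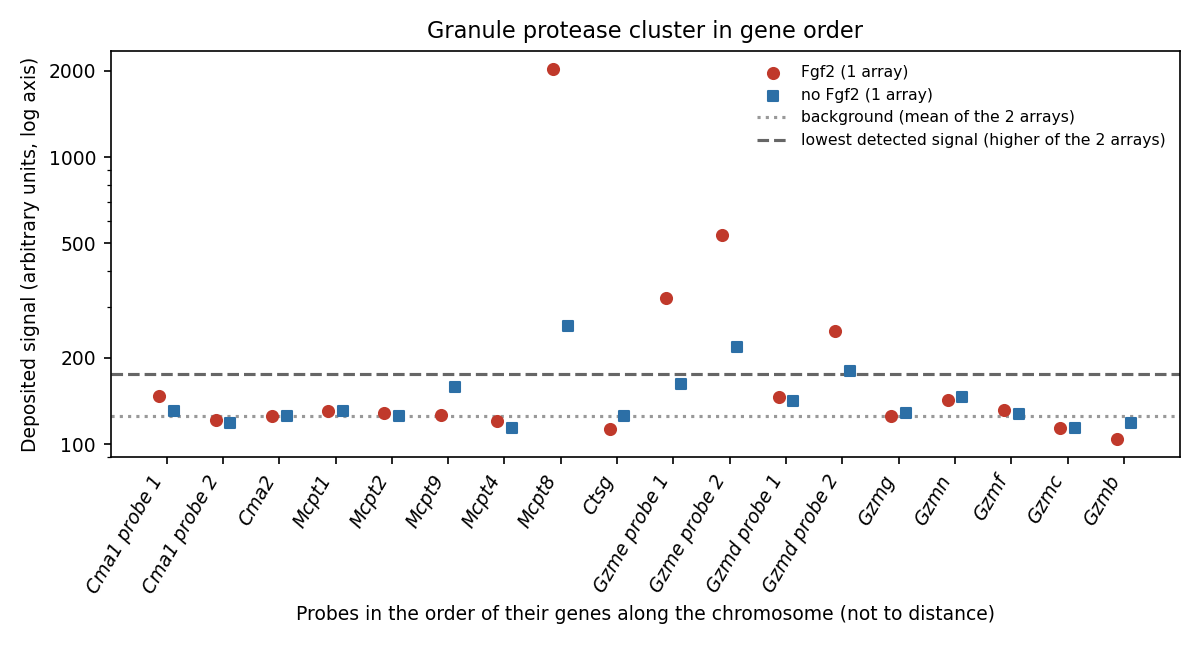
Deposited signal (log axis) of each probe for the 15 genes of the granule protease row on chromosome 14, in gene order, 1 array per culture, with Fgf2 as circles and without Fgf2 as squares. Mcpt8, both Gzme probes and 1 Gzmd probe rise above the lowest detected signal with Fgf2, while Ctsg between them stays at background.

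Windows of 250 bases before the annotated start of transcription were read from RefSeq on build GRCm38.p6 for the 3 detected genes of the row and for Ctsg, which lies among them undetected. All 4 genes are on the minus strand, and each window is given along the gene. Capitals mark the core of ETS factor motifs, the letters GGAA preceded by CA or CC, and the core of GATA factor motifs, the letters GATA preceded by A or T and followed by A or G, each searched on both strands. The windows are Mcpt8 at chr14:56085198-56085447, Gzme at chr14:56120626-56120875, Gzmd at chr14:56132594-56132843 and Ctsg at chr14:56102575-56102824.
Mcpt8: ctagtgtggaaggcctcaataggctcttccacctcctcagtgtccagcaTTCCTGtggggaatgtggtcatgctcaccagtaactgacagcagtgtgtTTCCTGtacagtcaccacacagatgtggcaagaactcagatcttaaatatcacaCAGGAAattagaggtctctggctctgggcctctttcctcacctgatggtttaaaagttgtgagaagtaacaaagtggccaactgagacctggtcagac
Gzme: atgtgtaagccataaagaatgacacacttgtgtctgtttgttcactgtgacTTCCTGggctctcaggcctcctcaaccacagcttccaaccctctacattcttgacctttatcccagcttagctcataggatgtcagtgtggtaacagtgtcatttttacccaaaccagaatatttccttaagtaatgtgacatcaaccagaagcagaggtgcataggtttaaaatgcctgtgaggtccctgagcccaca
Gzmd: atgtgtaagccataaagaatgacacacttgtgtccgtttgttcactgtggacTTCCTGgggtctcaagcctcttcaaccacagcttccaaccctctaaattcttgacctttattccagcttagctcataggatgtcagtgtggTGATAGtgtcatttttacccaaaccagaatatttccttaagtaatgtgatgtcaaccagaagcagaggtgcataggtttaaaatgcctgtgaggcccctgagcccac
Ctsg: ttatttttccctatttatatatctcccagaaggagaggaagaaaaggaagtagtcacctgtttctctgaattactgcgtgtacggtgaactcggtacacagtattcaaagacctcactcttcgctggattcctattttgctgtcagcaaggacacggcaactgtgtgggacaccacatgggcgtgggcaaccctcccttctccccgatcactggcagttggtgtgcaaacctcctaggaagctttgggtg

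In a global alignment the windows of Gzme and Gzmd were 94.8% identical, over 251 columns. That of Mcpt8 was 46.0% identical to Gzme, 48.1% to Gzmd and 45.2% to Ctsg. The same measure gave 80.9% between Gzme and Gzmc and 79.4% between Gzme and Gzmg, genes that were not detected. Mcpt8 was 50.4% identical to Mcpt4 and 47.4% to Gzmb, genes at background. Of the genes named here, Mcpt8 was thus closest to Mcpt4 over the whole window, and its value for Gzmb lay between those for Gzme and Gzmd. Windows similar to that of Gzme stood before genes at background. Identity over a whole window does not read short shared stretches, and a part of these windows in the differences was not tested.

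The ETS letters occurred 3 times before Mcpt8, once each before Gzme and Gzmd and not before Ctsg, and 35.1% of all 32851 windows of the same length held them. Among other undetected genes of the row, they stood 3 times before Mcpt4, 2 times before Mcpt1 and once each before Gzmf, Gzmg and Gzmc. They did not stand before Gzmn, Gzmb, Mcpt9 or Cma1. The GATA letters occurred once before Gzmd and not before Mcpt8, Gzme or Ctsg. The AP-1 letters TGANTCA, on both strands, and the TATA letters TATAAA, on the gene strand, were in none of the 4 windows. Matches did not overlap. Such a match is a description of letters, not of a binding site.

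Of the 10 mast cell genes 9 had a window in the same table, and Tpsb2 had none. The GATA letters were in the windows of 6 of the 9 (Cma1, Cpa3, Fcer1a, Mcpt1, Mcpt4 and Ms4a2), against 26.5% of all windows. The TATA letters were in 4 of the 9 (Cpa3, Fcer1a, Mcpt1 and Mcpt4), against 7.59%. These are all genes at background on both arrays. The AP-1 letters were in the window of Gzmb only, against 6.75%, and the ETS letters in those of Cpa3, Mcpt1, Mcpt4 and Mcpt8. Windows of related genes share ancestry, so they are not independent.

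The genes whose pair of levels lay nearest to that of Mcpt8, by Euclidean distance over the 2 arrays, were Prl2c3 (0.59), Mgst2 (0.77), Prl2c4 (0.82), Gch1 (1.03) and Gap43 (1.10). With only 2 points per gene this measure says that the probes were about as bright and differed by about as much. Prl2c3, of the prolactin family, had signals of 1607.0 with Fgf2 and 314.8 without it. Mgst2, a microsomal glutathione transferase, had 1259.0 and 277.1, and Prl2c4, a close relative of Prl2c3, had 1216.1 and 241.0. Gch1, the first enzyme of tetrahydrobiopterin synthesis, and Gap43, a growth cone protein, differed by 2.26 and 2.28. None of the 5 is in the mast cell and basophil lists. That was already set, since of the list genes detected on both arrays Mcpt8 alone was at least 2-fold higher.

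**Figure D4:**
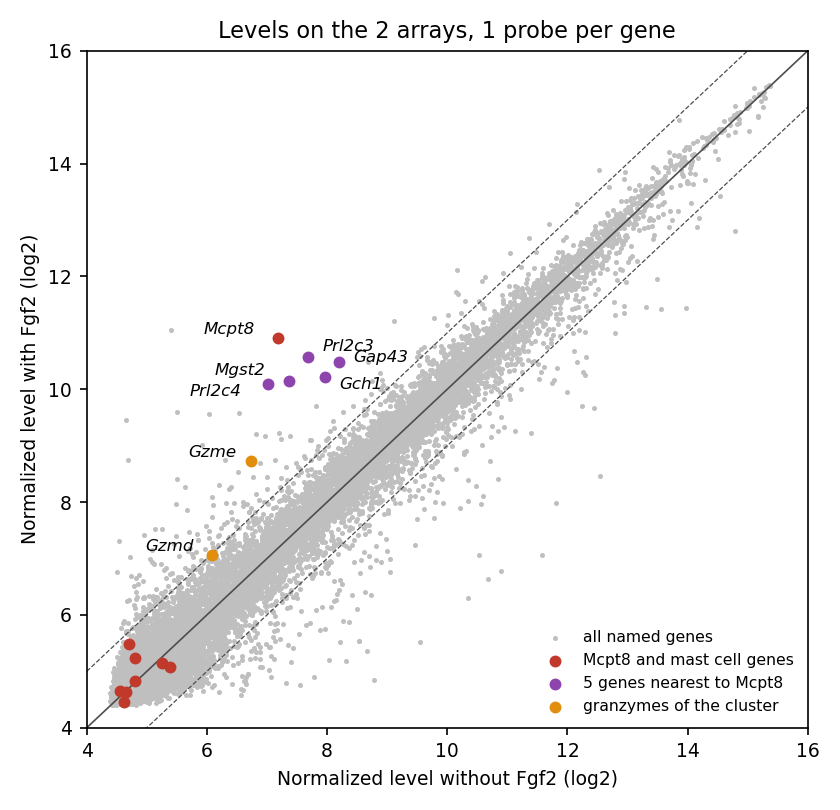
Normalized level (log2) of each named gene by its brightest probe, without Fgf2 on the horizontal axis and with Fgf2 on the vertical, 1 array each; the solid line marks equality and the dashed lines 2-fold. Mcpt8 lies at 10.90 with Fgf2 and 7.19 without it, near Prl2c3 and Mgst2, while the other mast cell genes lie at the low end of both axes.

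Markers of blood cells in general were mostly at background too. Of 16 such genes 3 were detected on both arrays (18.8%), against 41.6% of all named genes. Cd53, a tetraspanin of white blood cells, had a signal of 298.9 with Fgf2, against 187.8 without it, a difference of 1.29 or 2.45-fold higher, and 1.58-fold without background correction. Arhgdib, which is also expressed outside blood, had 5622.9 and 2950.4, a difference of 0.96, and Laptm5, a lysosomal protein, had 271.1 and 298.5, a difference of -0.25. Ptprc, which encodes CD45, had 119.4 with Fgf2 and 139.1 without it. Tyrobp, an adaptor of myeloid and natural killer cells, had 121.5 and 144.5, and neither Ptprc nor Tyrobp was detected. The summed signal of the list was 7869.9 with Fgf2 and 5222.3 without it. Arhgdib held most of both sums.

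Coro1a was detected only without Fgf2. Of 13 eosinophil and neutrophil genes 0 were detected on either array. Of 10 macrophage genes 2 were detected on both arrays, against 41.6% of all named genes. Lyz2, which encodes lysozyme, differed by 0.17. Cd14, a coreceptor for lipopolysaccharide, had 304.3 with Fgf2, against 176.2 without it, where it was barely detected at a p-value of 0.0088. Cd14 was 2.99-fold higher with Fgf2, and 1.72-fold higher without background correction. C1qc was detected only without Fgf2. Of 14 T and natural killer cell genes, Prf1 was detected on both arrays and Cd3e only without Fgf2, with 143.0 against 198.6. Summed signals were 1832.6 with Fgf2 and 1746.4 without it for the macrophage list, 1670.7 and 1734.6 for the eosinophil and neutrophil list, and 2021.2 and 2162.0 for the T and natural killer cell list. All such sums are of deposited signals with the background, about 125.4 and 125.8 per gene, left in. Undetected genes thus contribute to them, and they do not measure cell content. The part of other cell types in the difference of Mcpt8 was not tested.

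**Figure D5:**
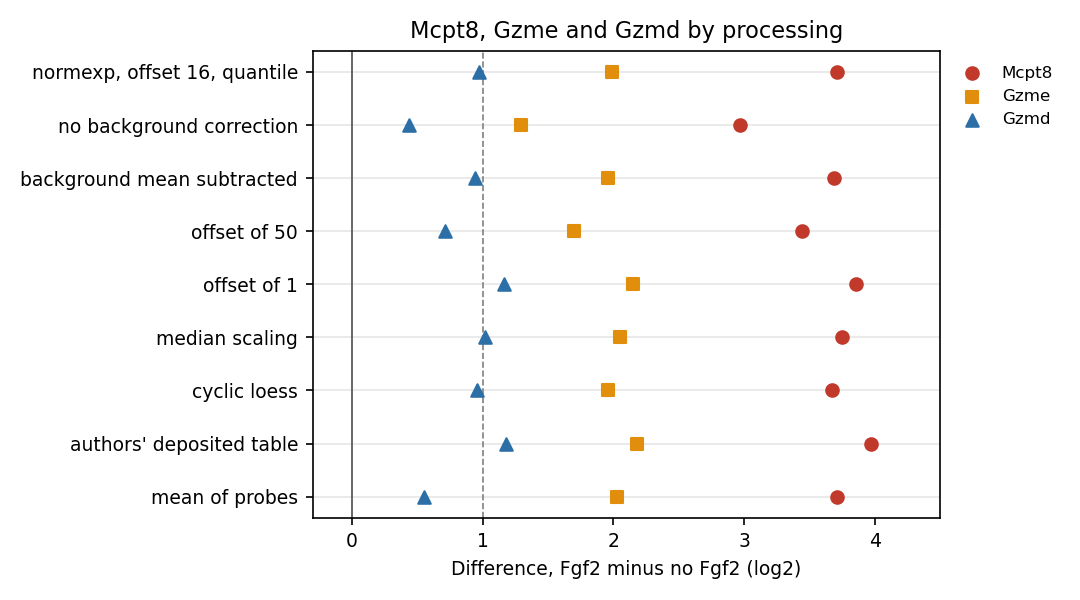
Difference between Fgf2 and no Fgf2 on the log2 scale (horizontal axis) for Mcpt8, Gzme and Gzmd under each way of processing; the dashed line marks 2-fold. Mcpt8 ran from 2.97 to 3.97, Gzme from 1.29 to 2.18 and Gzmd from 0.44 to 1.18.

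Mcpt8 was above 2-fold under every way of processing tried, with folds from 7.85 to 15.7, and Gzme likewise, with folds from 2.44 to 4.53. Gzmd crossed 2-fold under some settings and not others, with folds from 1.36 to 2.26. No setting changed the direction of any of the 3.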

How the data were processed

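Total RNA from 2 cultures, 300 ng each, was amplified into biotinylated cRNA and hybridised to 1 array per culture, per the labels' protocols. The authors deposited linear intensity values that show no normalization between arrays. Each signal column is followed by its detection p-value column, per the file headers. The authors also deposited a table on a log2 scale whose columns share 1 distribution and follow the ranks of their own arrays; how its background was corrected is not stated. The submitters' processing notes name BeadStudio 3.2, RMA and lumi without saying what each did.

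Background was removed by normexp in limma 3.58.1 (R 4.3.3), with its mean and SD inferred from the detection p-values and an offset of 16, followed by quantile normalization and log2. The steps were tested on simulated arrays whose changed probes lay well above background, so differences near background were not covered. Further steps used Python 3.11.15, pandas 2.3.3, numpy 2.4.6, Biopython 1.88 and matplotlib 3.10.9. The platform annotation gave 23978 of 25697 probes 1 gene symbol, 0 several and 1719 none; symbols were updated by Entrez number for 23962. A gene's difference is that of its brightest probe, and a gene counted as detected if any probe was. With 1 array per group no test was run, and the number of arrays limits the precision. Named genes are every member, every listed gene detected on an array (fibroblast genes by examples), and the 5 genes nearest to Mcpt8; undetected genes named beside them were picked as well-known markers. Members and lists were chosen with earlier results of these data known. Gene order comes from RefSeq on GRCm38.p6; the array files name no build. Alternatives were other background corrections, offsets, normalizations, detection and fold thresholds, the mean of probes and the authors' table.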

Additional observations from a re-analysis of the deposited data

How the results depend on the processing

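The difference of Mcpt8 was 3.71 on the log2 scale. It was 2.97 without background correction, 3.44 with an offset of 50 and 3.97 in the authors' deposited table. Under the other 5 settings it moved by less than the SD between probes. For the mean of probes this was fixed in advance, because Mcpt8 has a single probe. The count of members detected and of members at least 2-fold apart was 1 under each alternative run. The count of listed mast cell and basophil genes detected on both arrays, 11, was 13 at a detection p-value below 0.05, 8 below 0.001 and 8 by the mean of probes. Of all genes 298 were at least 2-fold apart, 162 without background correction, 966 at 1.5-fold and 94 at 3-fold. For 25 other named genes no alternative turned the direction; of 200 values 27 moved by more than the SD between probes, and the cause was not tested. Gzmd, at 1.96-fold, was 2.26-fold in the authors' deposited table and 1.47-fold by the mean of its probes. Signals at background limit what can be read for the 8 undetected members. No paired analysis was possible because each group holds 1 array.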
